A study of Homo sapiens with 16 samples.

Results

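The genes described here are the leukocyte integrins and their ICAM ligands, taken by symbol: the integrin alpha chains ITGA4, ITGAL, ITGA5 and ITGA6, the beta chains ITGB1, ITGB2 and ITGB7, and the intercellular adhesion molecules ICAM1, ICAM2 and ICAM3. They are 10 of the 57820 genes in the table, and 10 of 10 were found and tested. RNA was sequenced from 3 established lines of T-cell acute lymphoblastic leukaemia, CUTLL1, KOPTK1 and HPB-ALL, in which the long non-coding RNA lnrCXCR4 was targeted or not. Targeting was by lentivirus with CRISPR components, against a non-targeting guide, or by an antisense oligonucleotide (ASO) put into the medium at 1 uM, against a scrambled ASO. Guides were used in each line, with 1 control against 2 targeted libraries in CUTLL1 and in KOPTK1 and 2 against 2 in HPB-ALL. ASOs were used in CUTLL1 and KOPTK1, with 1 control against 2 targeted libraries in each. That makes 5 experiments, 6 control and 10 targeted libraries. Targeted libraries are numbered as guides or ASOs in their titles and as replicates in their descriptions. Whether they carry different guides is therefore not settled, and they served as replicates here. Separate cultures are not mentioned, so a p-value measures the spread between these libraries alone, and that spread may be technical. The labels do not give the time after targeting, or whether the infected cells were a clone.

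An integrin is a pair of 1 alpha and 1 beta chain, and neither chain is carried to the cell surface in quantity without its partner. In T cells ITGA4 pairs with ITGB1 (VLA-4, a receptor for VCAM1 and fibronectin) or with ITGB7 (a receptor for MADCAM1 of gut vessels), ITGA5 and ITGA6 pair with ITGB1 as receptors for fibronectin and laminin, and ITGAL pairs with ITGB2 to form LFA-1. LFA-1 binds ICAM1, ICAM2 and ICAM3, which are immunoglobulin-type proteins on other leukocytes and on endothelium, and this is how T cells arrest on vessel walls and hold on to antigen-presenting cells. Chemokine receptors such as CXCR4 switch both receptors on from inside the cell, through RAP1, talin and kindlin.

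Before the members' values are read, 2 facts about the libraries need stating. The lncRNA has 0 entries under its name, so its level was not analysed here, and nothing in the table checks the labels by their target. Guide and ASO libraries of the same line and arm were about as near to each other as replicates were: the chi-square of their reads, averaged over genes so that 1 is counting noise, was 1.73 to 14.5 over 10 such pairs and 2.34 to 6.75 over 6 pairs of replicates. Control and targeted libraries of a line stood at 168 to 305, and libraries of different lines at 241 to 737. Depth was 34547469 to 72178929 reads in the 15 libraries whose reads could be recovered. The mitochondrial share of the signal was higher in the targeted libraries of each line, at 2.46% to 3.25% against 1.84% to 2.48% in controls, and its part in the results was not tested.

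The labelled cell type showed in its markers. The 11 T-lineage markers found in the table all had a mean of 20 or more normalised counts, and CD3D, CD3E and CD7, which define the lineage, averaged 24000, 19109 and 5866 over the 16 libraries. The summed level of the 11 ran from 279564 to 373697 in controls and from 191882 to 219969 in targeted libraries. In the comparison of all libraries 9 of the 11 fell, where 38.8% of all genes tested fell and 36.2% rose. Lists for other lineages were not all low, and they moved with the arm too. The summed level of 8 B-lineage markers ran from 899 to 10865 in controls and from 313 to 2045 in targeted libraries, that of 8 myeloid markers from 4122 to 11758 and from 2601 to 7575, and that of 8 NK and cytotoxic markers from 2299 to 3055 and from 407 to 879. In the comparison of all libraries the tested markers of these lists all fell (3, 1 and 3, with medians of -2.39, -0.63 and -2.25 on the log2 scale). The sum of 7 endothelial and fibroblast markers ran from 7.17 to 62.1 in controls and from 22.8 to 786 in targeted libraries, where COL1A1, a fibroblast collagen, was the 1 tested and rose (1.65, adjusted p = 0.00923 in limma). The 8 erythroid and megakaryocyte markers summed to at most 17.4 in any library. Among the markers taken to define these lineages, PAX5 averaged 1.79, CD14 8.93, CSF1R 0.0595, NCAM1 2.45 and CDH5 0.190, and NCR1 and PF4 were at 0 in every library. COL1A1 averaged 47.6. The part of these shifts in the members' results was not tested. In bulk RNA, fewer cells of a kind and less RNA per cell cannot be told apart.

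The promoters of 3 members, taken from those with a matched promoter, are given first. ITGA4 and ICAM1 lay lower in every targeted library, and ITGB1 lay higher in each. The letters are the 250 bases before the RefSeq start in GRCh38.p14, read 5′ to 3′ on the gene's strand, with motif matches in capitals. ITGA4 is on the plus strand of chromosome 2 from 181457136 to 181457385, ITGB1 (the upstream of its starts) on the minus strand of chromosome 10 from 32958231 to 32958480, and ICAM1 on the plus strand of chromosome 19 from 10270870 to 10271119.
ITGA4: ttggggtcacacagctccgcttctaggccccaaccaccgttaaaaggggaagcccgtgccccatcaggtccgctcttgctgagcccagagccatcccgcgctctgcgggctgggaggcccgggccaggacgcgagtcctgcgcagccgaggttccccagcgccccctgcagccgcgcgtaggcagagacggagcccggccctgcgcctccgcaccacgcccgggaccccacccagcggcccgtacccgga
ITGB1: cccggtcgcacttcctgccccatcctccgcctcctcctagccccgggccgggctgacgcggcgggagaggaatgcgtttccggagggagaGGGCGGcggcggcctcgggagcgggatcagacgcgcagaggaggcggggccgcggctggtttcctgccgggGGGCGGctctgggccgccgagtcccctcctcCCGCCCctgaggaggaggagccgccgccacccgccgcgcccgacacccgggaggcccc
ICAM1: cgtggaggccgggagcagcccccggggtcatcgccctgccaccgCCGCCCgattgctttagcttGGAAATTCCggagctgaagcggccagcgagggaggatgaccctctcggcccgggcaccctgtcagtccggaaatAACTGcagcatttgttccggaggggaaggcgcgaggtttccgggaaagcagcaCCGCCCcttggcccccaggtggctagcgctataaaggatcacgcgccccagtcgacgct
The motifs searched on both strands were an ETS core (CCGGAAG), a RUNX core (TGTGGT), an E-box (CACGTG), a GC box (GGGCGG), a kB motif (GGAAATTCC) and a MYB core (AACTG). ICAM1 had 1 kB motif, held by 0.413% of 35116 promoter windows of this length, and 2 GC boxes and 1 MYB core, held by 42.6% and 34.1%. ITGB1 had 3 GC boxes. None of these 6 exact strings was in the ITGA4 window, and other forms of the motifs were not searched. The ETS core, RUNX core and E-box, as spelt here, were in 8.52%, 10.98% and 6.34% of windows. GC content was 72.8% for ITGA4, 78.4% for ITGB1 and 66.0% for ICAM1, against a median of 58.0% over all windows. RefSeq promoters were matched for 7 of the 10 members, and not for ITGAL, ITGB2 and ICAM2.

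Across the members the common direction in the joint comparison was down. In that fit of all 16 libraries 9 members fell and 1 rose, where over all 14020 genes tested 38.8% fell and 36.2% rose. Of the 9, ITGA6 and ITGB7 are unsure. Their calls were lost without 11 and 9 of the 16 libraries left out in turn, and ITGA6 was not called lower in CUTLL1. The members' median log2 fold change of targeted against control was -1.16, against -0.03 over all genes. A fall of more than 2-fold was called for 6 members (ITGA4, ITGAL, ITGA5, ITGB2, ICAM1 and ICAM3), against 11.4% of all genes. ITGA5 is the least sure of them. Its joint value includes HPB-ALL, where it rests on few reads, and ran from -1.24 to -0.85 under the alternatives. With guides alone 7 fell and 1 rose, against 35.0% and 32.7% of 14069 genes, and with ASOs alone 8 fell and 1 rose, against 33.2% and 31.8% of 13712 genes. In all 5 experiments every targeted library lay below every control for 7 members (ITGA4, ITGA5, ITGAL, ITGB2, ICAM1, ICAM2 and ICAM3), a pattern that 28.8% of all genes tested shared. Most genes passed the threshold in one direction or the other, so a call by itself says little here, and the members' falls are given by size as well. Tests were limma's on log2(normalised count + 1), with Benjamini-Hochberg adjusted p over all genes and a threshold of 0.05.

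**Figure D1:**
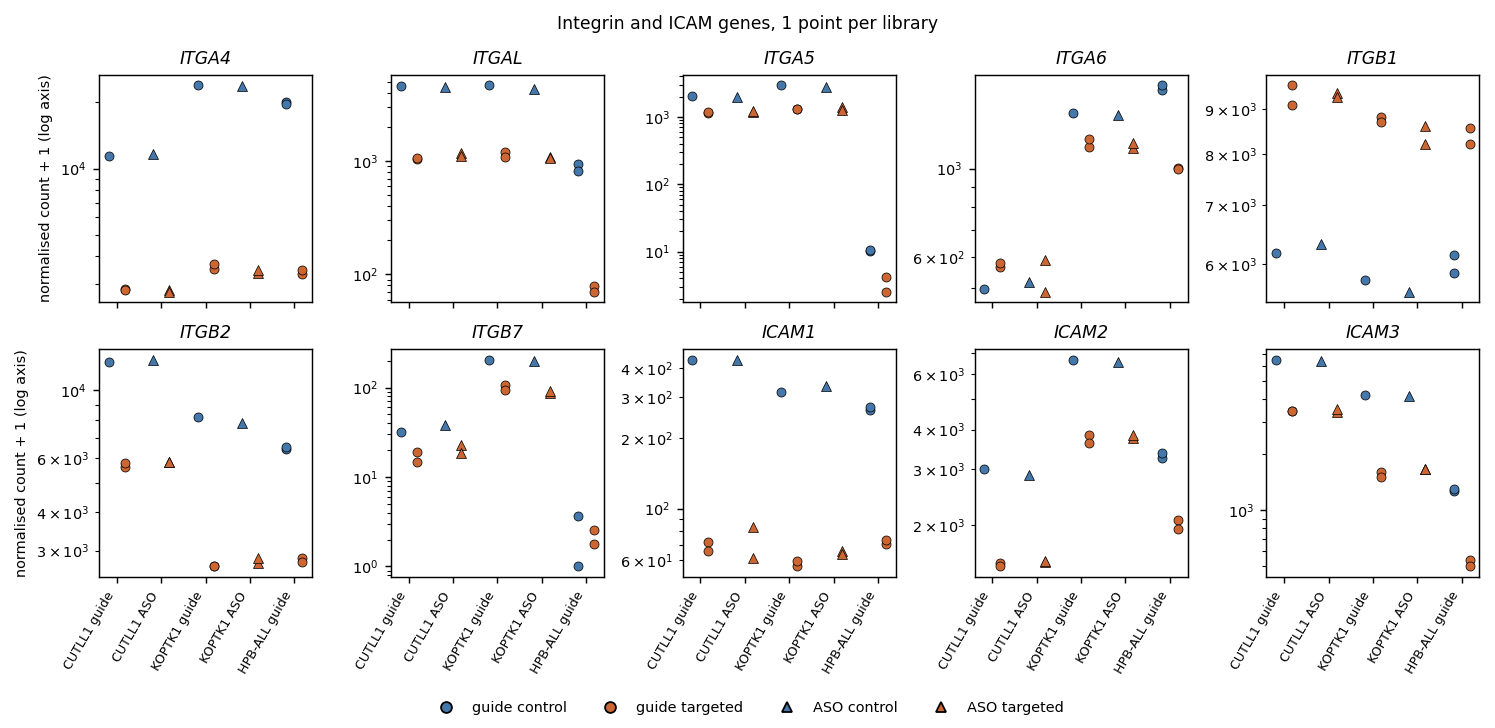
Normalised count plus 1 (log axis, with its own range in each panel) of the 10 genes in each of the 16 libraries, by line and modality; circles are guide and triangles ASO libraries, blue controls and orange targeted. Targeted points lie below controls in every experiment for 7 genes, above them for ITGB1, and overlap or turn by line for ITGA6 and, in HPB-ALL, ITGB7.

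ITGA4, the alpha chain of VLA-4, was among the members with the deepest fall. CUTLL1 controls held 11442 normalised counts with the guide and 11700 with the ASO, and the 4 targeted libraries 2830 and 2807 with guides and 2797 and 2757 with ASOs. In KOPTK1 the controls held 24034 and 23720, and the targeted libraries 3511 and 3672 with guides and 3352 and 3456 with ASOs. In HPB-ALL the controls held 20129 and 19730 and the targeted libraries 3316 and 3476. Controls spread widely by line while targeted libraries did not: in guide libraries the highest line was 2.10 times the lowest among controls and 1.27 times among targeted libraries. The joint log2 fold change was -2.45 (SE 0.088, adjusted p = 1.64e-11 in limma), a 5.46-fold lower level. It was -2.46 with guides (adjusted p = 7.07e-08) and -2.44 with ASOs (adjusted p = 2.79e-05).

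ITGA5, the alpha chain of the fibronectin receptor, was a gene of CUTLL1 and KOPTK1 and close to absent from HPB-ALL. CUTLL1 controls held 2005 and 1962 normalised counts and targeted libraries 1138, 1160, 1192 and 1231. KOPTK1 controls held 2974 and 2777 and targeted libraries 1288, 1296, 1395 and 1279. HPB-ALL controls had 7 and 10 reads and targeted libraries 4 and 2, so the value in that line rests on a handful of reads. No targeted library reached a control of its experiment. The log2 fold change was -1.14 in the joint comparison (SE 0.130, adjusted p = 2.04e-06 in limma), -1.29 with guides (adjusted p = 0.000135) and -0.88 with ASOs (adjusted p = 0.000207). The joint and guide values include HPB-ALL. By experiment it was -0.80 with guides and -0.70 with ASOs in CUTLL1, and -1.20 and -1.06 in KOPTK1.

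ITGA6, the alpha chain of a laminin receptor, did not move one way. CUTLL1 controls held 497 and 518 normalised counts, with targeted libraries at 564 and 578 with guides and 587 and 489 with ASOs, on either side of the controls. KOPTK1 controls held 1378 and 1365 and targeted libraries 1134, 1185, 1123 and 1157, all lower. HPB-ALL controls held 1578 and 1622 and targeted libraries 1003 and 998. The log2 fold change with guides was 0.20 in CUTLL1 (95% interval -0.00054 to 0.40), -0.25 in KOPTK1 (adjusted p = 0.0324) and -0.68 in HPB-ALL (adjusted p = 6.45e-06), from limma's fit of group means. Pooled over lines the value was -0.30 with guides (interval -0.59 to -0.020, adjusted p = 0.0561) and -0.11 with ASOs (interval -0.35 to 0.14, adjusted p = 0.401). The joint value of -0.23 (adjusted p = 0.0406) became -0.06 (adjusted p = 0.457) without HPB-ALL. With 1 library left out, the call held where that library was a CUTLL1 guide library, the CUTLL1 ASO control or CUTLL1 ASO 1, and was lost without each of the other 11 (adjusted p = 0.0521 to 0.0929). It was also lost with quantile scaling (-0.092, adjusted p = 0.468) and with no filter (adjusted p = 0.0636), as were the KOPTK1 calls with guides (0.194 and 0.103) and with ASOs (0.140 and 0.0902). The pooled guide value was called without the CUTLL1 control, guide 1 or guide 2 (adjusted p = 0.00082, 0.0490 and 0.0398), and the KOPTK1 guide value was not without KOPTK1 guide 1 (adjusted p = 0.104). Without CUTLL1 ASO 1 or ASO 2 the CUTLL1 guide value passed (adjusted p = 0.0173 and 0.0169). With quantile scaling the ASO value of ITGA6 turned to 0.06 and the CUTLL1 guide value was 0.43 (adjusted p = 0.00163).

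ITGB1, the common beta chain of VLA-4 and of the fibronectin and laminin receptors, was the member that rose. CUTLL1 controls held 6184 and 6322 normalised counts and targeted libraries 9085, 9576, 9365 and 9271. KOPTK1 controls held 5760 and 5582 and targeted libraries 8817, 8701, 8608 and 8200. HPB-ALL controls held 6138 and 5859 and targeted libraries 8204 and 8548. The lowest of the 10 targeted libraries was above the highest of the 6 controls, whatever the line. The joint log2 fold change was 0.56 (SE 0.025, adjusted p = 1.32e-10 in limma), a 1.47-fold higher level. It was 0.55 with guides and 0.57 with ASOs, and from 0.48 to 0.60 in the 5 experiments.

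ITGB7, the beta chain that pairs with ITGA4 for gut homing, was low throughout. KOPTK1 controls held 204 and 196 normalised counts and targeted libraries 105, 92.1, 85.8 and 91.2. CUTLL1 controls held 31.2 and 36.8 and targeted libraries 13.8, 18, 22.0 and 17.4. HPB-ALL controls had 2 and 0 reads and targeted libraries 1 and 2, too few for any fold. Within CUTLL1 and KOPTK1 all targeted libraries were below their controls, and over these 2 lines the guide value was -0.996 (adjusted p = 0.00399 in limma) and the ASO value -1.01 (adjusted p = 0.00345). With HPB-ALL in the fit the guide value was -0.50 (adjusted p = 0.282) and the joint value -0.68 (adjusted p = 0.0313). The joint call was lost without any of 9 libraries (adjusted p = 0.0507 to 0.0956): the guide and ASO controls of CUTLL1 and KOPTK1, CUTLL1 guide 1, KOPTK1 guide 2, the first HPB-ALL control, CUTLL1 ASO 2 and KOPTK1 ASO 1. It was also lost with quantile scaling (-0.28, adjusted p = 0.434) and with no filter (adjusted p = 0.0598). Without the second HPB-ALL control the guide value was -0.92 (adjusted p = 0.00529). ITGB7 overlaps ZNF740, which lies on the other strand and averaged 5240 normalised counts, and whether counting used the strand is not given in the sources used here.

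Both chains of LFA-1 fell, the alpha chain further. ITGAL held 4623 and 4519 normalised counts in CUTLL1 controls against 1035, 1062, 1180 and 1110 in targeted libraries. KOPTK1 controls held 4723 and 4373 and targeted libraries 1203, 1089, 1084 and 1063. HPB-ALL controls held 941 and 825 and targeted libraries 77.4 and 69.2, so the line with the least ITGAL also had the steepest fall. The log2 fold change was -3.57 in HPB-ALL and between -2.14 and -1.98 in the other 4 experiments. The joint value was -2.46 (SE 0.190, adjusted p = 3.16e-08 in limma).

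ITGB2, the beta chain of LFA-1, held 12428 and 12621 normalised counts in CUTLL1 controls against 5644, 5794, 5852 and 5842 in targeted libraries. KOPTK1 controls held 8164 and 7832 and targeted libraries 2663, 2662, 2724 and 2835. HPB-ALL controls held 6453 and 6525 and targeted libraries 2829 and 2756. Targeted libraries were more than 2-fold lower in every line, and the arms did not overlap. The joint log2 fold change was -1.30 (SE 0.057, adjusted p = 1.10e-10 in limma), and guides and ASOs alone each gave -1.30. ITGB2-AS1, an antisense gene over ITGB2, ran from 105 to 323 normalised counts in controls and from 13.1 to 34.9 in targeted libraries (joint log2 fold change -3.34), and reads of the pair may not be told apart.

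Of the 3 LFA-1 ligands, ICAM1 was the scarcest and fell most. ICAM1, the inducible ligand, held 435 and 435 normalised counts in CUTLL1 controls against 70.9, 64.4, 81.9 and 60.2 in targeted libraries. KOPTK1 controls held 315 and 334 and targeted libraries 55.4, 58.7, 64.8 and 63.0. HPB-ALL controls held 264 and 272 and targeted libraries 69.4 and 72.3. As with ITGA4, the lines lay closer together after targeting, the ratio of the highest to the lowest line in guide libraries being 1.62 among controls and 1.24 among targeted libraries. For other members it widened: from 5.35 to 15.6 for ITGAL, 5.07 to 6.68 for ICAM3, 2.22 to 2.50 for ICAM2, 1.92 to 2.15 for ITGB2 and 1.07 to 1.11 for ITGB1, while ITGA6 went from 3.22 to 2.03. The joint log2 fold change was -2.36 (SE 0.109, adjusted p = 1.79e-10 in limma), a 5.12-fold lower level.

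ICAM2, the ligand that is made constitutively, held 3001 and 2871 normalised counts in CUTLL1 controls against 1516, 1475, 1523 and 1540 in targeted libraries. KOPTK1 controls held 6663 and 6533 and targeted libraries 3850, 3615, 3748 and 3853. HPB-ALL controls held 3253 and 3375 and targeted libraries 2070 and 1942. Its joint log2 fold change of -0.84 (SE 0.036, adjusted p = 9.84e-11 in limma) was the mildest of the 3 ligands. Guides and ASOs alone each gave -0.84.

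ICAM3, the ligand that resting leukocytes carry, held 6507 and 6381 normalised counts in CUTLL1 controls against 3444, 3427, 3390 and 3535 in targeted libraries. KOPTK1 controls held 4165 and 4149 and targeted libraries 1601, 1517, 1660 and 1660. HPB-ALL controls held 1271 and 1296 and targeted libraries 534 and 495. The arms did not overlap in any line, and the joint log2 fold change was -1.19 (SE 0.064, adjusted p = 8.60e-10 in limma). ICAM1 and ICAM3 both lie on chromosome 19 in RefSeq, where ICAM4 and ICAM5 follow ICAM1, and RAVER1 and TYK2 flank ICAM3. The joint log2 fold changes were -0.28 for ICAM4 (adjusted p = 0.265), -1.05 for ICAM5 (adjusted p = 0.000861), 0.31 for RAVER1 and 0.25 for TYK2. Over the members' 40 nearest neighbours, of which 32 were tested, 11 rose and 15 fell, where 36.2% of all genes rose and 38.8% fell.

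**Figure D2:**
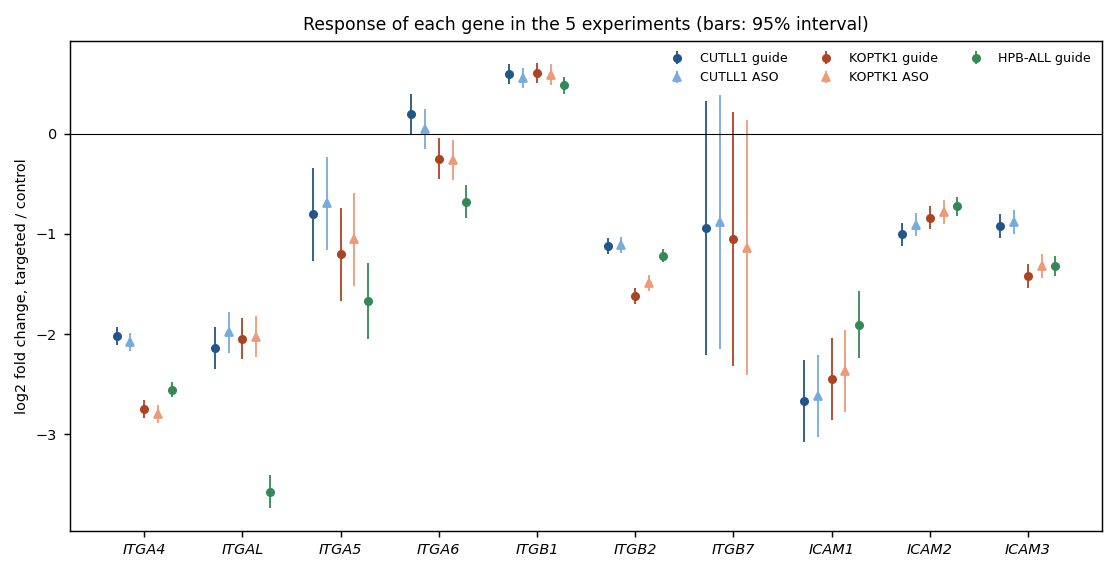
Log2 fold change of targeted against control for each gene in the 5 experiments, from limma's fit of group means; circles are guides, triangles ASOs, bars 95% intervals, and ITGB7 in HPB-ALL is left out because it rests on 0 to 2 reads a library. ITGB1 stands above 0 throughout, ITGAL in HPB-ALL reaches -3.57, and guide and ASO values of a line lie beside each other.

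Each experiment by itself gave a similar tally. In CUTLL1, 7 members fell and 1 rose with guides and again with ASOs, where 62.3% of all genes were called in either direction each time. In KOPTK1, 8 fell and 1 rose with guides and with ASOs, against 64.1% and 63.4% of all genes. In HPB-ALL, 8 fell and 1 rose with guides, against 70.9% of all genes. One of these 8 is ITGA5, which entered the test through the other lines and rests there on the few reads given above: its value of -1.67 was -0.98 with a pseudocount of 5 and -0.78 with quantile scaling. The members not called were ITGB7 in each experiment and ITGA6 in CUTLL1. Without the first or the second HPB-ALL control, ITGB7 was called in all 4 CUTLL1 and KOPTK1 experiments (adjusted p = 0.00822 to 0.0304 in limma), as it was with a pseudocount of 5 (0.00236 to 0.0209). With no filter ITGA5 was not called in CUTLL1 with guides (adjusted p = 0.0502) or with ASOs (0.0841). The ITGA6 call in KOPTK1 with ASOs was lost without KOPTK1 ASO 1 (adjusted p = 0.0876). These fits share 1 estimate of the spread over all lines, and in 4 of the 5 experiments the lone control was assumed to vary like the other groups.

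Guides and ASOs could be set against each other in CUTLL1 and KOPTK1. For the difference between modalities, limma called 0 of 10 members, 0 of them also at an unadjusted p under 0.05, and 0 of 14020 genes (0%), with 1393 genes at an unadjusted p under 0.05. The difference (guides minus ASOs, log2) was 0.06 for ITGA4 (95% interval -0.034 to 0.15), 0.02 for ITGB1 (-0.077 to 0.13), -0.09 for ITGAL (-0.29 to 0.12) and -0.07 for ITGB2 (-0.15 to 0.014). It was -0.13 for ITGA5 (-0.59 to 0.34), 0.08 for ITGA6 (-0.12 to 0.28) and 0.01 for ITGB7 (-1.26 to 1.28). It was -0.06 for ICAM1 (-0.47 to 0.35), -0.08 for ICAM2 (-0.19 to 0.039) and -0.07 for ICAM3 (-0.19 to 0.051). Small differences lie within these intervals, and for ITGB7 a difference of over 2-fold does, and the nearness of guide to ASO libraries given above bears on how far the 2 sets count as separate experiments.

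The size of the response differed between lines for some members, and the calls of ICAM1 and ICAM2 were thin. An F test that compared the guide effect across the 3 lines passed for 7 of 10 members, against 43.7% of all genes. ITGAL fell most in HPB-ALL (-3.57, against -2.14 in CUTLL1 and -2.04 in KOPTK1, adjusted p = 3.71e-06 in limma). ITGA4 fell least in CUTLL1 (-2.02, against -2.74 in KOPTK1 and -2.55 in HPB-ALL, adjusted p = 8.50e-06). ITGB2 fell most in KOPTK1 (-1.62, against -1.12 and -1.22 in CUTLL1 and HPB-ALL, adjusted p = 4.70e-05), and ICAM3 fell least in CUTLL1 (-0.92, against -1.42 in KOPTK1 and -1.32 in HPB-ALL, adjusted p = 0.000743). ITGA6 differed in the way described above (adjusted p = 0.000476).

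ICAM2 fell most in CUTLL1 (-1.005, against -0.84 in KOPTK1 and -0.72 in HPB-ALL, adjusted p = 0.0175), and so did ICAM1 (-2.67, against -2.44 and -1.91, adjusted p = 0.0489). Both calls were thin: ICAM1's was lost without 12 of the 14 libraries left out in turn (adjusted p = 0.0516 to 0.116) and ICAM2's without CUTLL1 guide 2 or the first HPB-ALL control (adjusted p = 0.0543 and 0.0552). Among these omissions, ICAM1's call survived only those of the CUTLL1 ASO libraries 1 and 2. With no filter neither ICAM1 (adjusted p = 0.077 in limma) nor ICAM2 (0.0575) was called. In that setting 5 of 10 members passed, against 6739 of 34609 genes. ITGB1 (adjusted p = 0.171), ITGA5 (0.0561) and ITGB7 (0.310) did not pass. Without the first or second HPB-ALL targeted library ITGA5 passed (adjusted p = 0.000130 and 0.0142), and without the first HPB-ALL control ITGB7 did (adjusted p = 0.00602), each on the few reads of that line.

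The lines also differed before any targeting. Between CUTLL1 and KOPTK1 controls 9 of 10 members differed, against 73.9% of all genes. CUTLL1 had more ITGB2, ICAM3, ICAM1 and ITGB1 (log2 difference 0.65, 0.63, 0.42 and 0.14) and less ITGB7, ITGA6, ICAM2, ITGA4 and ITGA5 (-2.52, -1.43, -1.17, -1.05 and -0.53). The ITGA5 difference was not called with no filter (adjusted p = 0.076 in limma). ITGAL did not differ detectably (0.01, 95% interval -0.16 to 0.18). HPB-ALL guide controls differed from those of the other lines in 9 of 10 members, against 76.6% of all genes. The 9 include ITGA5 and ITGB7, which passed the filter only through CUTLL1 and KOPTK1, so their calls are not read as results. HPB-ALL guide controls had next to no ITGA5 or ITGB7, at the reads given above, for which no fold is given. They had less ITGAL (-2.41), ICAM3 (-2.02), ITGB2 (-0.63), ICAM1 (-0.46) and ICAM2 (-0.43), more ITGA6 (0.95) and ITGA4 (0.27), and ITGB1 was at 0.01 (interval -0.076 to 0.089). The ICAM1 difference was not called without the first HPB-ALL control (-0.44, adjusted p = 0.0634).

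Counts of different genes can be compared only per length, here per kilobase of exon. In CUTLL1 controls the order ran ITGB2 (3578 normalised counts per kb), ICAM3 (2888), ITGA4 (2512), ICAM2 (1915) and ITGB1 (1591), then ITGAL (877), ITGA5 (446), ICAM1 (134), ITGA6 (86.9) and ITGB7 (11.9). In KOPTK1 controls ITGA4 led at 5184, followed by ICAM2 (4304), ITGB2 (2285), ICAM3 (1863) and ITGB1 (1443), with ITGAL (872), ITGA5 (647), ITGA6 (235), ICAM1 (99.8) and ITGB7 (69.8) below. In HPB-ALL controls ITGA4 again led at 4327, ahead of ICAM2 (2162), ITGB2 (1854), ITGB1 (1526), ICAM3 (575), ITGA6 (274), ITGAL (169) and ICAM1 (82.5), while ITGA5 (2.11) and ITGB7 (0.461) were at the bottom. In each line the 2 control libraries of one gene did not overlap those of the next gene in the order.

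After targeting ITGB1 moved to the top or next to it. It held 2373 normalised counts per kb in CUTLL1 and 2131 in HPB-ALL, first in both, and 2184 in KOPTK1, second to ICAM2 at 2457. ITGA4 fell to 607, 759 and 737 in CUTLL1, KOPTK1 and HPB-ALL. In KOPTK1 its libraries (728 to 797) overlapped those of ITGB2 (761 to 810) and of ICAM3 (680 to 744), so the order of these 3 is not resolved. ICAM1 stood at 21.3, 18.6 and 21.8 and ITGAL at 210, 213 and 14.1.

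**Figure D3:**
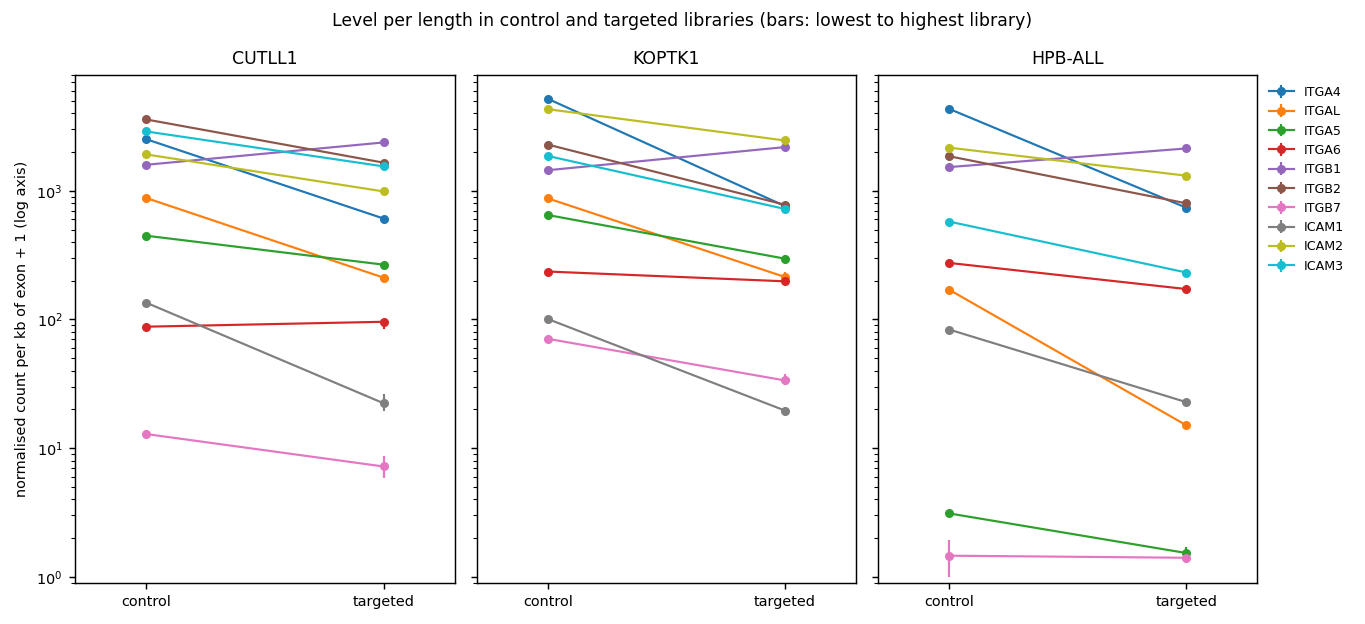
Mean normalised count per kb of exon, plus 1 (log axis), of each gene in control and targeted libraries of each line, guides and ASOs together; bars run from the lowest to the highest library. ITGA4 drops from above ITGB1 to below it in each of the 3 lines.

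Because alpha and beta chains work as pairs, the change of each chain was set against that of its partner. ITGA4 minus ITGB1, as a difference of log2(normalised count + 1), was 0.89 in CUTLL1 controls, 2.06 and 2.09 in KOPTK1 controls and 1.71 and 1.75 in HPB-ALL controls. In targeted libraries it was between -1.77 and -1.68, between -1.36 and -1.24 and between -1.31 and -1.30. The sign turned in all 5 experiments, and the mean shift was -3.00 (exact two-sided permutation within experiments, p = 0.00206, the smallest that 486 arrangements allow; adjusted over 6 pairs p = 0.00247). ITGA5 shifted against ITGB1 by -1.65 (-1.53 over CUTLL1 and KOPTK1 alone) and ITGA6 by -0.75, with the same permutation p. For ITGA4 and ITGA5 that p was fixed in advance and restates the single-gene results. Each lay below every control in all 5 experiments, and ITGB1 lay above. Guide and ASO sets were permuted as separate experiments, although they were about as near as replicates. ITGA6 too lay below every control in 3 of the 5 experiments, those of KOPTK1 and HPB-ALL, so its separation from ITGB1 was fixed there. In CUTLL1 ITGA6 was at 0.20 with guides and 0.05 with ASOs, and ITGB1 at 0.59 and 0.56. The shift in CUTLL1 thus restates the rise of ITGB1 and shows no fall of ITGA6.

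Within LFA-1, ITGAL shifted against ITGB2 by -1.04 (exact permutation p = 0.00206, adjusted 0.00247), in 5 of 5 experiments. The shift was -0.71 over CUTLL1 and KOPTK1 alone (exact permutation p = 0.0123, the smallest that 81 arrangements allow). For ITGB7 only CUTLL1 and KOPTK1 carry information: there ITGA4 shifted against ITGB7 by -1.41, and ITGB7 against its rival ITGB1 by -1.59, each in 4 of 4 experiments with an exact permutation p of 0.0123. The p of ITGB7 against ITGB1 was likewise fixed, since these genes separated the arms in opposite directions. With guides alone the smallest p is 0.0185 and with ASOs alone 0.111, so the ASO libraries alone could not pass.

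**Figure D4:**
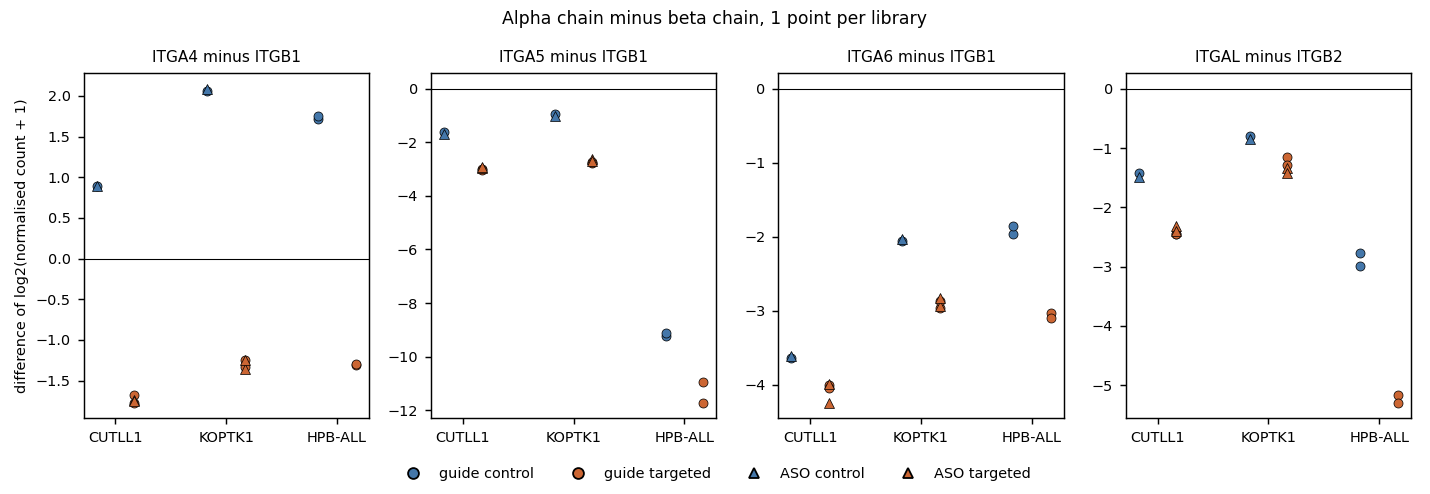
Difference of log2(normalised count + 1) between an alpha chain and its beta chain in each library, by line; circles are guides, triangles ASOs, blue controls and orange targeted. ITGA4 minus ITGB1 is above 0 in the 6 controls and below 0 in the 10 targeted libraries, and the other pairs shift down from levels that differ by line.

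Genes that work with the integrins were read against the share of all genes called in the joint comparison, 38.8% lower and 36.2% higher. Of 9 other integrin subunits tested, 5 fell and 1 rose (median -0.42): ITGA1, a collagen receptor chain, at -1.31, ITGAE, the partner of ITGB7 in epithelium-homing T cells, at -0.86, and ITGB4 at -1.17 fell. ITGAV was at 0.17 (adjusted p = 0.114). Of 6 other ligands tested, LAMA5 rose (1.13) and ICAM5 fell. VCAM1, the ligand of VLA-4 on endothelium, averaged 0.0595 normalised counts and was not tested. ITGB3 and F11R, with 2 marker genes, did not match an entry of the table.

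Genes of inside-out activation, which switch integrins on, were 11 lower and 6 higher of 19 tested (median log2 fold change -0.40, against -0.03 over all genes). Those with the smallest p were APBB1IP (RIAM, which brings talin to RAP1) at -1.84, VAV1 at -0.77 and FYB (ADAP) at -1.70. Talin itself, TLN1, was at 0.05 (adjusted p = 0.250, limma). Negative regulators of integrin activation were 7 lower and 3 higher of 12 (median -0.17), and FLNA, a filamin, which competes with talin for the beta tail, rose by 0.63. RAP1GAP2, which turns RAP1 off, fell by 1.79 on the log2 scale. Among those not called, SIPA1L1 was at -0.01 (adjusted p = 0.821).

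Outside-in signalling and the adhesion complex gave 8 lower and 7 higher of 16 (median -0.27). The actin crosslinkers ACTN1 and ACTN4 went opposite ways, -0.95 and 0.81, and TNS4, a tensin of focal adhesions, was at -4.97 (mean level 88.1 normalised counts). NEDD9 was at -0.05 (adjusted p = 0.549). Of the 5 genes grouped as actin anchors of ICAM tails, 3 fell and 1 rose: EZR, which links ICAM tails to actin, rose by 0.33, MSN fell by 0.14 and ARHGDIB by 0.49 on the log2 scale. Of 7 tetraspanin partners, 5 fell and 1 rose (median -0.48), with CD53 at -0.72, CD63 at -0.84 and CD82 at -0.46. No list was tested as a set.

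**Figure D5:**
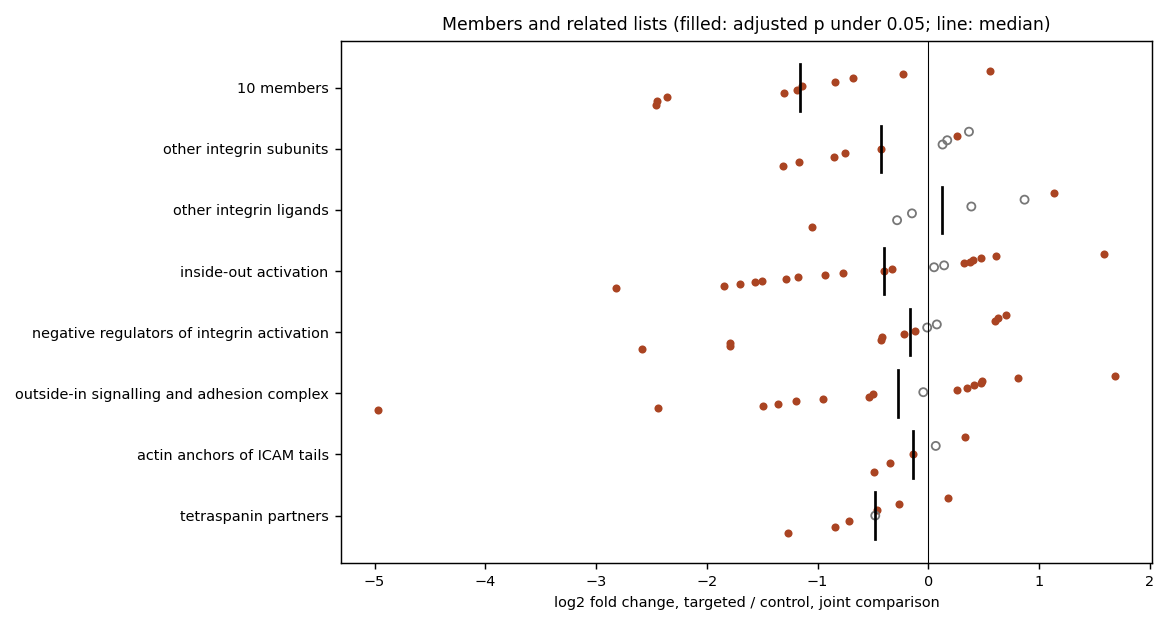
Joint log2 fold change of targeted against control for the 10 members and for the tested genes of 7 related lists, 1 point per gene; filled points passed an adjusted p of 0.05 in limma and black lines are medians. The members' median of -1.16 lies lower than that of each list, and each of the 7 lists has calls on both sides of 0.

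As a description, the genes whose levels ran most like a member's over the 16 libraries were listed by Pearson correlation of log2(normalised count + 1). The libraries share lines and arms, so such values are high for many genes. For ITGA4 they were ANKRD40 (r = 0.99), DNTT, the template-free polymerase of immature lymphocytes (0.99), and SELRC1 (0.99). For ITGAL they were RNF145, RGS14 and METTL1 (each 0.99), for ITGB2 RINL, METTL3 and PLA2G6 (each 0.99), and for ITGB1 CENPI and TEX14 (each 0.99). ITGA5 ran with FXYD5 (0.998), KCNAB3 (0.998) and RIPK4 (0.997), and ICAM1 with C20orf196, DFFB (each 0.99) and UBE2E1 (0.98). ICAM2 ran with VPS33A, MRPS7 and HVCN1 (each 0.99), ICAM3 with NIF3L1 (0.996), IDH3B (0.995) and MCM7 (0.99), ITGA6 with TARS (0.99), RHOBTB1 and ST3GAL1 (each 0.98), and ITGB7 with SLFN12L, RARG and SPHK1 (each 0.99). Among the members themselves ITGA4 ran with ICAM1 (r = 0.92, n = 16) and against ITGB1 (r = -0.98).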

How the data were processed

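The deposited table holds a signal for each of 57820 genes in 16 libraries, and the authors' values are whole reads divided by 1 factor per library: 100% of values were whole multiples of the column's step, with 1e-06 as the tolerance. Per the submitters' processing notes, which assign no roles, the tools were STAR 1.4.2 and DESeq2 and the build hg19. The kit was a directional one, per the labels' protocols. Counter, annotation and use of strand in counting: not given in the sources used here. Reads were recovered for 15 libraries; the step of CUTLL1 ASO 1 lies too near 1 to be checked.

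Tests were limma's (3.58.1, R 4.3.3) with trend and empirical Bayes on log2(normalised count + 1), for genes whose mean in the fitted libraries reached 20, which understates fold changes of low genes. The guide comparison (10 libraries) and ASO comparison (6 libraries) had line as a term and the joint comparison (16 libraries) experiment. Single experiments, the F test between lines, guides minus ASOs and control levels came from 1 fit of group means. Subunit balance used an exact permutation test over all arrangements of the arms within experiments (Python 3.11.15). The fits were run on simulated data as a check of the code. Far fewer genes were changed there than were called here, so that run does not give error rates for these data. Alternatives were a pseudocount of 5, the filter removed or raised to 100, quantile and median-of-ratios scaling, the replicate number as a block, edgeR 4.0.16 and DESeq2 1.42.0 on recovered reads, leaving out each library, and, added after seeing the data, CUTLL1 and KOPTK1 only.

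Exon lengths came from GENCODE by symbol, as the union of exons, and promoters and gene order from RefSeq (GRCh38.p14); hg19 coordinates were not used. The members, the lists and the tests were chosen with earlier results of these data known. Named list genes are the up to 3 with the smallest joint p among those called, and genes not called given with their values. ICAM4, RAVER1 and TYK2 were named for their position, and ITGB2-AS1 and ZNF740 for their overlap with members. A few genes that these rules would name are not reported here.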

Additional observations from a re-analysis of the deposited data

Results flagged for a closer look

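In the main fit the response to guides differed between the 3 lines by limma's F test for 7 members. The calls of ICAM1 and ICAM2 among them were thin, as given above. F was 107.3 for ITGAL, 85.8 for ITGA4, 54.1 for ITGB2, 28 for ITGA6, 24.5 for ICAM3, 8.58 for ICAM2 and 5.59 for ICAM1. ITGAL stood apart in HPB-ALL, where its controls already held less than in the other lines. Each line had 1 or 2 guide controls. No group held enough libraries for a check of single libraries against the rest.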

How the results depend on the processing

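For ITGA4, ITGA5, ITGAL, ITGB1, ITGB2, ICAM1, ICAM2 and ICAM3, 464 of 464 values of the guide, ASO and joint comparisons under the alternatives kept their direction and call. Over all 10 members 540 of 577 did, the rest being ITGA6 and ITGB7. Directions turned in these cases. ITGB7 in HPB-ALL, at 0 to 2 reads, was -0.0059 with a pseudocount of 5. It was 1.10 without the first HPB-ALL control and -0.77 without the second, the ends of its range with a library left out. Its direction there thus hung on which control was kept, and neither value is read as a result. ITGA6 with ASOs was 0.062 with quantile scaling and -0.26 to 0.049 with a library left out, and in the CUTLL1 ASO experiment -0.083 to 0.18. Guides minus ASOs for ITGB7 was -0.0049 with quantile scaling and -0.077 to 0.10 with a library left out, and for ICAM1 -0.17 to 0.045. ITGB1 in HPB-ALL against the other controls was -0.027 to 0.041. Quantile scaling moved the median of all genes in the guide comparison from -0.03 to 0.07, and the share of calls that rose from 48.3% to 57.2%. Genes called for guides minus ASOs, 0 in the main analysis, were 1 with a pseudocount of 5, 1 with quantile scaling, 0 to 4 with a library left out, and 1501 with no filter, where genes at or near 0 in all libraries entered.

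The replicate numbers did not pair the libraries: deviations of same-numbered libraries correlated at -0.014 to 0.065. With the replicate number as a block, the genes called were 9188 of 14069 with guides, 7301 of 13712 with ASOs and 10275 of 14020 jointly, against 9519, 8913 and 10514, and the joint ITGB7 value was -0.55 (adjusted p = 0.0908). edgeR and DESeq2 on recovered reads called ITGA6 with guides (adjusted p = 0.0432 and 0.0282) and ITGB7 with guides (0.00298 and 0.00852). Low reads limit ITGB7 and ITGA5 in HPB-ALL, and intervals cover the spread between libraries only.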
